A study of Mus musculus with 2 samples.

Results

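The regions described here are the transcript models of the Genomic class that were assigned to annotated mouse genes in long-read RNA sequencing of newborn leg muscle. All models with the class label Genomic and an annotated mouse gene identifier were taken, whatever their count. There were 8235 such models among 117751 models in replicate 1 and 9021 among 122669 models in replicate 2. The tissue was gastrocnemius, the large calf muscle, from 4-day-old male B6CASTF1/J mice, a first-generation cross of C57BL/6J and the wild-derived strain CAST/EiJ. The series has 1 group of 2 replicates with no treatment and no second genotype, age or tissue, and each library was made from 2 µg of RNA. The labels give separate biosamples but a shared donor entry, so the spread between the replicates may be technical. Counts on annotated genes came to 998659 of 1066347 in replicate 1 and 1026257 of 1100253 in replicate 2. Both libraries carried the 6 muscle fibre markers of the list used here, with 143134 counts in replicate 1 and 144494 in replicate 2.

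In the TALON scheme, a read that follows an annotated intron chain is Known, and one that follows only part of such a chain is an incomplete splice match (ISM). New combinations of annotated splice sites are NIC, and models with a splice site outside the annotation are NNC. Genomic is the class left for reads that lie on a gene without fitting those descriptions, most of them unspliced, and isoform studies often set it aside. The last exon of a gene usually holds the 3′ untranslated region (3′ UTR) and ends at the cleavage site, where the poly(A) tail is added. Cleavage is directed by a hexamer upstream of the site, most often AATAAA or its variant ATTAAA. An A-rich stretch inside an RNA can also be primed by oligo(dT), which is why the bases after a read's 3′ end are commonly inspected.

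The 3′ ends of the leading Genomic models are shown first, since they are compared with annotated ends below. Each line gives the 30 bases of the annotated transcript up to the 3′ end of the model, 5′ to 3′ on the RNA strand. They come from the GENCODE M21 transcripts (mm10), with AATAAA or ATTAAA in capitals. The Apobec2 model is listed with a length of 1 base, so the bases shown before its end lie outside it. The lines cover the models found in both libraries with the most counts and leading genes in which the class held most counts. Of the latter, only genes whose leading end lay in annotated exon sequence in both libraries could be shown. This passed over Prr33, Rtl1, Nmrk2, Gm20388 and A530058N18Rik, and it favours annotated ends.
Slc25a4, replicate 1, chr8:46207168-46207197, minus strand: tcattAATAAAgactactcaatacacttta
Slc25a4, replicate 2, chr8:46207146-46207175, minus strand: acactttatctccctgcccttattaactac
Apobec2, both replicates, chr17:48419231-48419260, minus strand: atagcaacatcAATAAAggaaataagtggt
Tspan9, both replicates, chr6:127961396-127961425, minus strand: ataaaaactgatcatgtgtcaaaagcacaa
Sparc, both replicates, chr11:55394500-55394529, minus strand: caaAATAAAaagtaacaacttagaaacggc
Igfbp5, both replicates, chr1:72857932-72857961, minus strand: tttatttAATAAAagtgtgcattcagctag
Myadml2, both replicates, chr11:120646031-120646060, minus strand: cagaaAATAAAaagtggatgtctggtttca
Apoe, both replicates, chr7:19696272-19696301, minus strand: ggcccttgcttAATAAAgattctccgagca
Agpat3, both replicates, chr10:78269178-78269207, minus strand: gatcataaaatatccacaatatatgagaaa
Nisch, both replicates, chr14:31170930-31170959, minus strand: tctattctAATAAAatggagtttgacacaa
H19, replicate 1, chr7:142575529-142575558, minus strand: ggtccatcAATAAAtacagttacagtcatt
H19, replicate 2, chr7:142575531-142575560, minus strand: tgggtccatcAATAAAtacagttacagtca
Igf2, both replicates, chr7:142650766-142650795, minus strand: caaacctAATAAAgcatttaaaatactatt
Plec, both replicates, chr15:76170974-76171003, minus strand: gcccctcAATAAAagcaattccaaccttca
Amotl1, both replicates, chr9:14541966-14541995, minus strand: ttgtaaatAATAAAtgtttaaaacagcaaa
Peg3, both replicates, chr7:6703892-6703921, minus strand: tcAATAAAAATAAAgttaaaaataagataa
Rian, both replicates, chr12:109661687-109661716, plus strand: ataaatgtatttcttctatgactaaaaaaa
Of these genes, Agpat3 alone had neither hexamer in the 50 bases up to the end in either library. In Rian, in Tspan9 and in Slc25a4 of replicate 2 the hexamer began more than 30 bases before the end. Except for Slc25a4, whose models stopped inside the last exon, each model shown ended exactly at an annotated 3′ end.

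The Genomic class held 2.92% of the counts on annotated genes in replicate 1 (29159 counts, exact Clopper-Pearson 95% interval 2.89 to 2.95%) and 3.25% in replicate 2 (33307 counts, 3.21 to 3.28%). The mean was 3.08 ± 0.230% (SD, n = 2). The intervals cover counting error only, and reads amplified before sequencing are not independent molecules. ISM models held 9.74% of the counts in replicate 1 and 9.33% in replicate 2, and Known models held 72.5% and 75.4%. Genomic models were numerous and mostly thin: 57.0% of them in replicate 1 and 56.0% in replicate 2 had a single count. Models with at least 10 counts numbered 498 and 576, and they carried 47.4% and 48.8% of the Genomic counts. Nearly all were unspliced. Models with 1 exon made up 94.9% of the class in replicate 1 and 95.3% in replicate 2, with 98.0% and 98.2% of its counts. Among all 1-exon models on annotated genes, the Genomic class held 46.1% of the counts in replicate 1 and 45.5% in replicate 2. Known 1-exon models held 38.02% and 36.8%, and 1-exon ISM models held 15.9% and 17.7%.

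Most Genomic counts lay over the last exon. Models wholly inside annotated last exons held 64.0% of the Genomic counts in replicate 1 (interval 63.5 to 64.6%) and 66.8% in replicate 2 (66.3 to 67.3%). Models that joined the last exon to intron bases followed with 12.4% and 11.1%. Models wholly inside introns held 8.35% and 9.84%. Models that ran from the last exon past the annotated end of the gene held 6.94% and 5.35%, and those over an earlier exon and an intron held 6.90% and 5.53%. The remaining places held under 1% each in either library. Intron models had few counts each, 1.68 per model in replicate 1 and 1.88 in replicate 2, against 4.60 and 4.77 for last-exon models. Among models with at least 2 counts, the mean intron share was 6.04%, against 9.10% over all models. Placed only by transcripts that had counts in the library, models past the annotated end held 10.3% on average, against 6.15%, and models outside the exons and the gene 4.27%, against 0.298%.

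**Figure D1:**
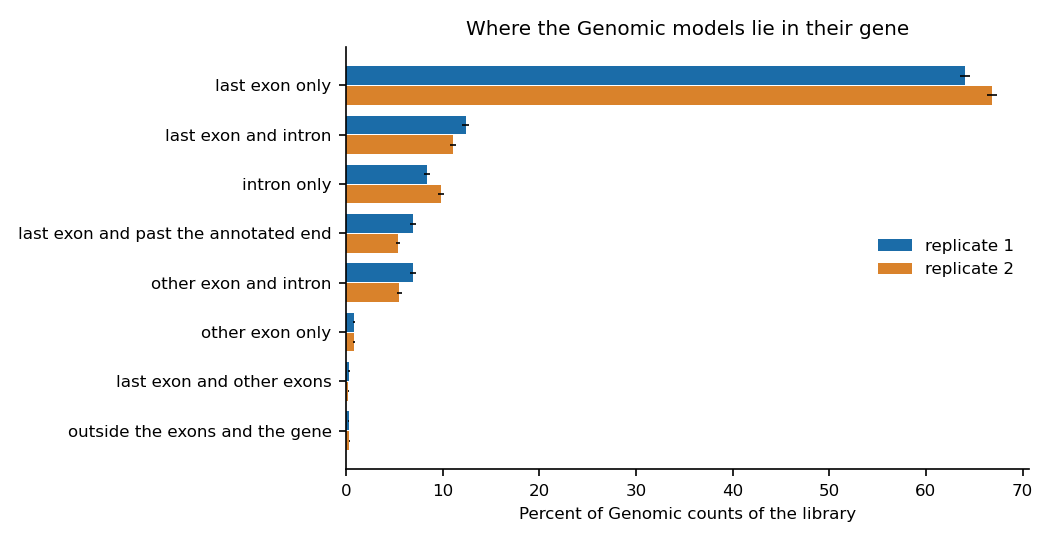
Percent of the Genomic counts of each library in each place (x axis), for 8 places from the last exon alone to outside the exons and the gene, in replicates 1 and 2. Bars are the values and lines the exact 95% intervals; last-exon models hold 64.0% and 66.8%, and no other place reaches 13%.

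Coding genes held 90.9% of the Genomic counts in replicate 1 and 90.2% in replicate 2. Of those counts, 46.8% and 49.998% lay on models wholly within a 3′ UTR. A further 38.5% and 35.4% lay on models partly within one, and 14.7% and 14.6% on models with no 3′ UTR base. Models with at least 1 coding base held 39.8% and 37.2% of the Genomic counts of coding genes. Models over an exon of a second gene on the opposite strand held 20.0% and 19.7% of all Genomic counts, and models over an exon of a second gene on the same strand held 3.42% and 3.91%.

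Of the 5 gene types summed, antisense genes, which are transcribed across another gene on its opposite strand, had the highest Genomic share. The class held 52.4% of their counts in replicate 1 (1169 of 2230) and 53.8% in replicate 2 (1413 of 2628). Processed transcripts, which are noncoding RNAs without an open reading frame, had 21.9% and 25.2%. Long intergenic noncoding RNAs (lincRNAs) had 10.4% and 13.4%. Coding genes had 2.72% and 3.01%, and processed pseudogenes 0.929% and 0.849%. Small RNA genes were not summed, and some had nearly all counts in the class, such as Snord104, a small nucleolar RNA gene, with 15 of 15 and 26 of 27. Places differed as well: last-exon models held 68.8% and 72.2% of the Genomic counts on coding genes, against 3.76% and 5.45% on antisense genes. On antisense genes, intron models held 33.4% and 36.9%, and models past the annotated end held 20.6% and 22.6%. The intron share was similar on lincRNAs, 32.5% and 37.9%, and on processed transcripts, 35.1% and 43.3%, against 6.21% and 7.17% on coding genes. Models over an exon of a gene on the opposite strand held 66.2% and 64.0% of the antisense Genomic counts and 16.3% and 15.5% of the coding ones. For lincRNAs these values were 59.4% and 59.5%, and for processed transcripts 44.6% and 51.4%. The strand of an unspliced read rests on the authors' processing, and its part in these values was not tested.

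Where the 3′ ends of Genomic models fell was read from the model coordinates, which are not the ends of each read. Known models were listed at an annotated 3′ end for 100% of their counts in both libraries. How far processing moved Genomic ends to annotated ones was not tested, so the shares below describe listed ends. Genomic models ended exactly at an annotated 3′ end for 63.0% of their counts in replicate 1 and 65.3% in replicate 2. The same share was 85.0% and 84.5% for ISM, 89.7% and 88.5% for NIC, and 91.3% and 87.5% for NNC. AATAAA or ATTAAA stood in the 50 bases up to the end for 81.9% and 83.1% of the Genomic counts whose end could be read from a transcript. For Known models the values were 81.8% and 81.9%. Of all 50-base windows in the last exons of the genes, 5.21% held one of these hexamers on the RNA strand. For Genomic ends at annotated sites the share was 86.3% and 87.3%, and for ends elsewhere in an exon it was 60.4% and 60.7%. Slc25a4 gave 682 of the 2290 hexamer counts at ends elsewhere in replicate 1, and 601 of 2473 in replicate 2. Counted by models, the share was 46.8% and 46.0% at ends elsewhere, against 82.1% and 83.4% at annotated sites. Of the counts at those other ends, 35.1% and 35.3% could be read, since only ends inside annotated exons have sequence in the reference used.

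A smaller part of the class ended before an A-rich stretch. The 20 bases after the end could be read for 19.3% of the Genomic counts in replicate 1 and 19.1% in replicate 2, where an annotated transcript went on. Of these counts, 13.2% (interval 12.4 to 14.2%) and 12.005% (11.2 to 12.8%) had at least 12 A among the 20 bases. For ISM models the share was 16.0% and 13.3%, for NIC 11.0% and 9.15%, and for Known 8.38% and 8.02%. Of all 20-base windows in the last exons, 1.39% reached 12 A. With a minimum of 10 A, a setting added after seeing the data, the Genomic share was 16.1% in replicate 1 and 27.5% in replicate 2. Of the 1753 counts behind the second value, 601 were those of the Slc25a4 model, whose end in replicate 2 lay at another base than in replicate 1 and had 10 A after it. Leading ends with at least 12 A are shown with the 20 bases after the end, 5′ to 3′ on the RNA strand, with every A in capitals.
Camk2b, 49 counts in replicate 1 and 45 in replicate 2, chr11:5969648-5969667, minus strand: AAAAAAAAAAAAAAAAAAAA
Pisd, 23 and 48 counts, chr5:32736302-32736321, minus strand: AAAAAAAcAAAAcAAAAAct
Gm26699, 21 and 28 counts, chr6:38552874-38552893, minus strand: AAAAAAAAAAAAAAAAAAAA
Bace1, 21 and 21 counts, chr9:45862220-45862239, plus strand: AAAAAAAAAAAAAAAAAAAg
Zbtb7a, 0 and 43 counts, chr10:81151612-81151631, plus strand: AAAAAtAgAAAAAAAAcAAA
Col1a1, 41 and 0 counts, chr11:94951848-94951867, plus strand: AAAAAAgAAAAAAAAAAAAA
Camk2b, a subunit of calcium/calmodulin-dependent kinase II, and Bace1, a membrane protease, ended at the same base in both libraries. Zbtb7a and Col1a1 had their A-rich end in a single library each.

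A set of models was listed with a length of 1 base. There were 149 of them with 799 counts in replicate 1 and 198 with 1197 counts in replicate 2, and 84.2% and 86.5% of these counts sat exactly on an annotated 3′ end. Apobec2, a muscle-enriched member of the APOBEC family, had nearly all of its Genomic counts there, 272 in replicate 1 and 372 in replicate 2, at position 48419231 of chromosome 17. Acta1, skeletal muscle alpha-actin, had 0 counts on such a model in replicate 1 and 248 in replicate 2. The listed coordinates belong to the model and not to each read, so these lengths do not give read lengths.

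Many of the genes with the most Genomic counts were abundant genes for which the class was a minor share. Slc25a4, the ADP/ATP carrier of the inner mitochondrial membrane in muscle, led with 682 Genomic counts among 4998 in replicate 1 and 601 among 6338 in replicate 2. Its Genomic share was 13.6% (interval 12.7 to 14.6%) and 9.48% (8.77 to 10.2%), and its share in replicate 1 was higher than in replicate 2 (two-sided Fisher's exact test, adjusted p = 6.98e-10). The models, of 453 and 475 bases, lay inside the last exon at chr8:46207168-46207620 and chr8:46207146-46207620. Apobec2 had a share of 33.3% in replicate 1 and 40.2% in replicate 2. Marcks, a membrane-bound substrate of protein kinase C, had 157 of 434 counts and 220 of 635, nearly all on 1 model over its last exon. Synpo2l, an actin-associated Z-disc protein, had 189 and 146 Genomic counts. Srl, the sarcoplasmic reticulum calcium buffer sarcalumenin, had 205 and 170. In replicate 1 the leading Srl model, of 190 counts, started in the last exon and ran 3954 bases past its annotated end. In replicate 2 the leading model, of 167 counts, lay inside the last exon.

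Across genes the class was sparse and uneven. Among 6147 genes with at least 20 counts in each library, 49.4% in replicate 1 and 47.7% in replicate 2 had no Genomic count, and the median share was 0.258% and 0.538%. The share was over 50% in 76 and 94 genes. The Spearman correlation of the share between the libraries was 0.529 over the 6147 genes. Genes are not independent replicates, and both libraries share the annotation. The share followed the length of the gene's last exon with a Spearman correlation of 0.298 in replicate 1 and 0.330 in replicate 2. The length of the longest transcript gave nearly the same, 0.271 and 0.304, and the span of the gene 0.207 and 0.222. The last exon as a percent of the longest transcript gave 0.144 and 0.155, and the number of exons 0.0529 and 0.0700. These lengths were not separated from each other. Pooled over genes whose last exon had up to 500 bases, the class held 0.820% of the counts in replicate 1 and 0.868% in replicate 2. Pooled over the 250 genes whose last exon exceeded 5000 bases, it held 10.3% in each library.

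**Figure D2:**
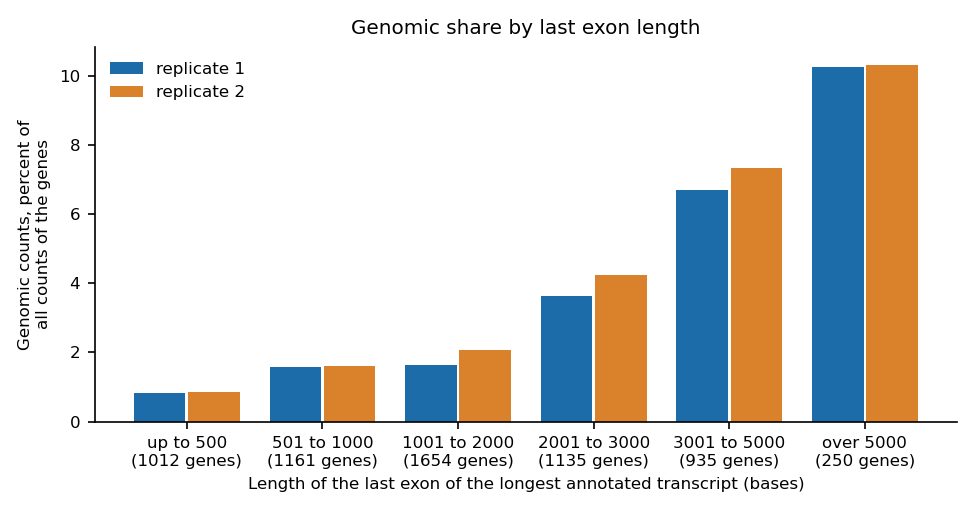
Genomic counts as a percent of all counts, pooled over genes grouped by the length of the last exon of their longest annotated transcript (x axis, bases), for replicate 1 and replicate 2. The bars go up from 0.820% and 0.868% in the shortest class to 10.3% and 10.3% in the longest; each bar is a pooled value of 1 library and carries no error bar.

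In 62 genes the class held over 50% of the counts in both libraries, 1.01% of the 6147 genes. This list was chosen by the share itself, so the shares are a description. It held 50 coding genes, 7 antisense genes, 3 lincRNAs and 2 processed transcripts, and 10 of the genes had no count of any other class. The count of such genes was 137 at a minimum of 10 counts, 22 at 50 counts and 29 at a share over 75%. With both the share and the minimum of 20 counts asked of a single library, it was 103 by replicate 1 and 118 by replicate 2. The antisense genes were 7 of the 11 with enough counts, while the coding genes were 50 of 6034. The last exon of the 62 genes had a median of 3200.5 bases, against 1460 bases in the other 6085 genes. Their median count was 46 in replicate 1 and 46.5 in replicate 2, against 57 and 59 in the others. Just inside the threshold lay Abl1 with 50.9% in replicate 1 and 53.3% in replicate 2, Igfbp5 with 51.1% and 74.0%, and Mrpl30 with 51.2% in each. Just outside it lay Taf10 with 52.6% and 49.3%, Polr2l with 48.9% and 61.7%, and Dag1 with 47.6% and 63.3%.

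**Figure D3:**
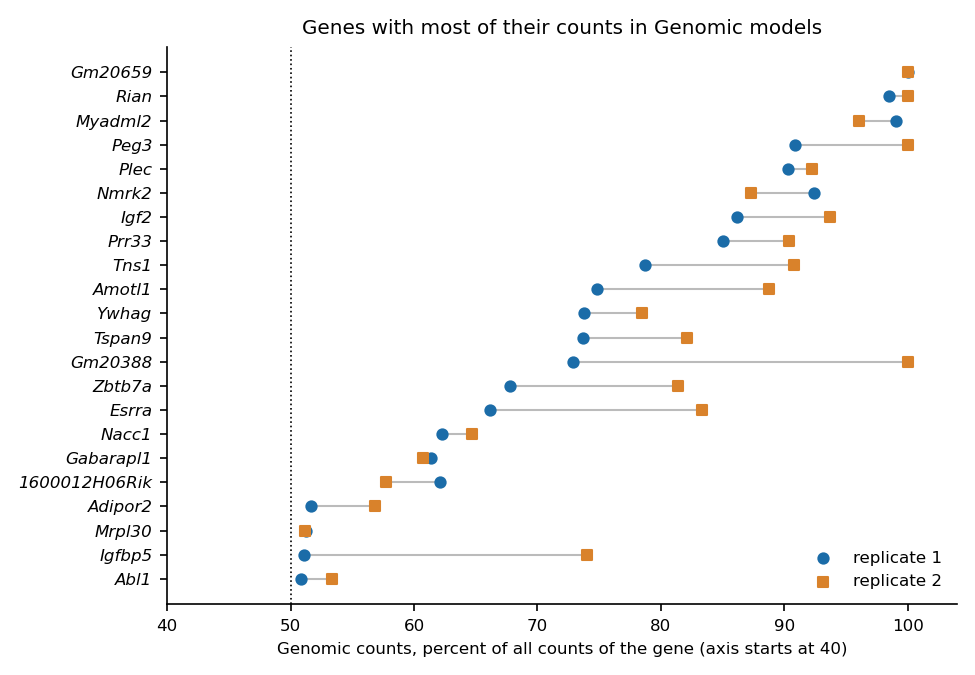
Genomic share of all counts of the gene (x axis, percent, starting at 40) in replicate 1 (circles) and replicate 2 (squares) for the 22 genes with at least 50 counts in each library and a share over 50% in both. Gm20659, Rian, Myadml2 and Peg3 lie above 90% in both replicates, and Mrpl30 and Abl1 lie next to the dotted 50% line.

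Several of the 62 genes are imprinted, which means that they are expressed from one parental copy. Igf2, insulin-like growth factor 2, a paternally expressed growth factor of fetal and neonatal tissue, had 325 Genomic counts among 377 in replicate 1 and 358 among 382 in replicate 2, a share of 89.96 ± 5.31% (SD, n = 2). All of these counts lay on 1 model per library, wholly within the 3′ UTR, of 859 bases in replicate 1 and 1682 in replicate 2. Known Igf2 transcripts held 13 and 5 counts. The model also overlaps an exon of Gm49394 on the same strand, so those counts could belong to either gene. Peg3, a paternally expressed zinc finger gene, had 70 of 77 and 81 of 81 counts on a model over its 3′ UTR and the end of its coding sequence.

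Other imprinted genes with over 50% in both libraries included Rian, Rtl1, Airn and Grb10. Rian, a maternally expressed noncoding RNA that hosts small nucleolar RNAs, had 66 of 67 and 73 of 73 counts in replicates 1 and 2. Nearly all of them lay on a model of 111 and 105 bases at its annotated end. Rtl1, a retrotransposon-derived gene of the same domain, had 243 of 251 and 31 of 36. In replicate 1, 203 of these counts lay on a model at chr12:109599809-109603182, which reached past the 5′ end of the gene. Replicate 2 had no count of that place, and its leading model of 26 counts lay over the last exon. Airn, the antisense RNA at Igf2r, had 30 of 34 and 29 of 43, and Grb10, a growth factor receptor adaptor, 32 of 59 and 30 of 47.

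The 17 imprinted and nuclear noncoding genes of the list used here included 6 of the 62 genes. Of the 17, 14 had at least 20 counts in each library, and their median share was 17.3% in replicate 1 and 34.4% in replicate 2, beside 0.258% and 0.538% over all 6147 genes. Pooled, they had 7.49% and 6.61%, beside 2.29% and 2.49%. The range inside the list was wide: H19, an imprinted noncoding RNA, had 81 of 5060 and 82 of 4669 counts in the class, and Cdkn1c, a cell cycle inhibitor, had 21 of 3889 and 19 of 3832.

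Further genes of the list are given by what they encode. Igfbp5, a binding protein of insulin-like growth factors, had 139 of 272 and 128 of 173 counts. Tspan9, a tetraspanin, had 182 Genomic counts among 247 in replicate 1 and 234 among 285 in replicate 2, nearly all on a model of 1407 bases with the same ends in both. Plec, the giant cytolinker plectin, had 167 of 185 and 143 of 155. Its model covered 2976 bases in replicate 1 and 993 in replicate 2, from the same 3′ end. Amotl1, an angiomotin-like junction protein, had 110 of 147 and 79 of 89, and Tns1, the focal adhesion protein tensin 1, had 48 of 61 and 59 of 65. The transcription factors Klf9, with 70 of 78 and 35 of 44, and Smad3, with 29 of 33 and 27 of 28, and the 14-3-3 protein gene Ywhag, with 76 of 103 and 51 of 65, were in the list as well. The 8 genes of this paragraph had last exons of 3104 to 7412 bases, but others among the leading genes had shorter ones, such as Prr33 with 1708, Nmrk2 with 1277 and Myadml2 with 411 bases. Of the 62 genes, 10 had a last exon of up to 500 bases, 0.988% of the 1012 genes with such a last exon, beside 1.01% of all 6147 genes. The same percent was 0.258% for last exons of over 500 and up to 1000 bases, and 4.4% for those over 5000 bases.

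Not every such gene carried the class at its 3′ end. The last exon alone was the leading place in 35 of the 62 genes, and introns alone in 11. The leading place was the last exon with an intron in 7 genes, and the last exon and bases past its end in 6. Myadml2, a myeloid-associated differentiation marker-like gene, had 109 of 110 and 98 of 102 counts on an unspliced model of 2128 bases, with identical ends in both libraries, that spanned the whole gene. Prr33 had 134 and 169 of its 148 and 179 Genomic counts inside an intron, where the models lay opposite exons of Tnnt3, fast skeletal troponin T. Nmrk2, a muscle nicotinamide riboside kinase, had 110 of 119 and 62 of 71 counts on models that ran past its annotated end, by 3088 bases for the leading model of replicate 1 and 3089 for that of replicate 2. Ino80d, a subunit of a chromatin remodelling complex, had only Genomic counts, 44 and 42, of which 41 and 39 lay over an exon at its 5′ end and upstream of it. Gm20659, an antisense gene, had only Genomic counts, 54 and 79, and its models ran 1091 bases past the annotated end over exons of Dusp3 on the other strand. Gm20388, a locus annotated over several other genes, spread 70 and 96 Genomic counts over 28 and 41 models, while most genes had 1 Genomic model, 78.7% of genes in replicate 1 and 79.5% in replicate 2.

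Pooled shares were low in several gene lists, and the most abundant RNAs of a list weigh most in its pooled share. The pooled Genomic share was 0.301% in replicate 1 and 0.506% in replicate 2 for the 32 sarcomere genes. It was 0.0992% and 0.123% for 13 genes of glycolysis and creatine kinase, and 0.385% and 0.319% for 22 ribosomal protein genes. The ribosomal list held only 6748 counts in replicate 1 and 9706 in replicate 2. Over all 6147 genes, the Spearman correlation of the share with the gene's counts was -0.0268 and -0.110. The median share of the sarcomere genes was 0.259% and 0.305%, beside 0.258% and 0.538% over the 6147 genes, so the list's low pooled share is not seen in its median in replicate 1. Hk2, the hexokinase of the glycolysis list, had 9 of 51 counts and 10 of 24. Inside the sarcomere list, Ldb3, a Z-disc PDZ-LIM protein, stood at 25.0% and 31.9%, and Ttn, the giant spring protein titin, at 6.33% and 23.1%. Mylpf, a fast myosin light chain, had 0.814% and 0.699%. The 19 extracellular matrix genes had 1.07% and 0.934%, the 16 calcium handling genes 0.540% and 0.762%, and the 28 splicing factors 3.62% and 5.23%. The 14 nuclear genes of oxidative phosphorylation had 3.74% and 3.38%, of which Slc25a4 made up 682 of 698 and 601 of 692 counts. Ddx5, an RNA helicase among the splicing factors, had 20 of 694 and 47 of 669, and Snrnp70, a U1 particle protein, had 14 of 42 and 23 of 49.

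Models were then compared between the libraries. With both ends within 100 bases, 1411 models were found in both, 17.1% of the Genomic models of replicate 1 and 15.6% of those of replicate 2, with 28.2% and 28.4% of the counts. Of these, 810 had identical ends and 1407 the same place. On the 3′ end alone, within 100 bases on the same gene, 41.4% of the 1-exon models in replicate 1 and 37.6% in replicate 2 had a partner, with 63.7% and 61.5% of the counts. Igf2, Plec and Peg3, described above, are examples of a shared 3′ end with different listed 5′ ends. All of these 3′ ends are annotated ends, and the part of the annotation in their sharing was not tested.

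The Genomic share of a gene was tested between the libraries with a two-sided Fisher's exact test, which compares 2 libraries and not 2 conditions. Of 4091 genes tested, 174 differed after Benjamini-Hochberg adjustment at 0.05, 4.25% of those tested. The share was higher in replicate 1 for 66 genes (1.61%) and lower for 108 (2.64%). At an unadjusted p under 0.05 there were 460 genes, and 113 calls had a difference of at least 10 percentage points. Of the 174 genes, 114 had no Genomic count in one of the libraries (65.5%), beside 1856 of all 4091 genes tested (45.4%). Of the 62 genes above, 6 were among the 174, namely Igf2, Igfbp5, Gm20388, Brd2, Lsr and Ddx6.

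**Figure D4:**
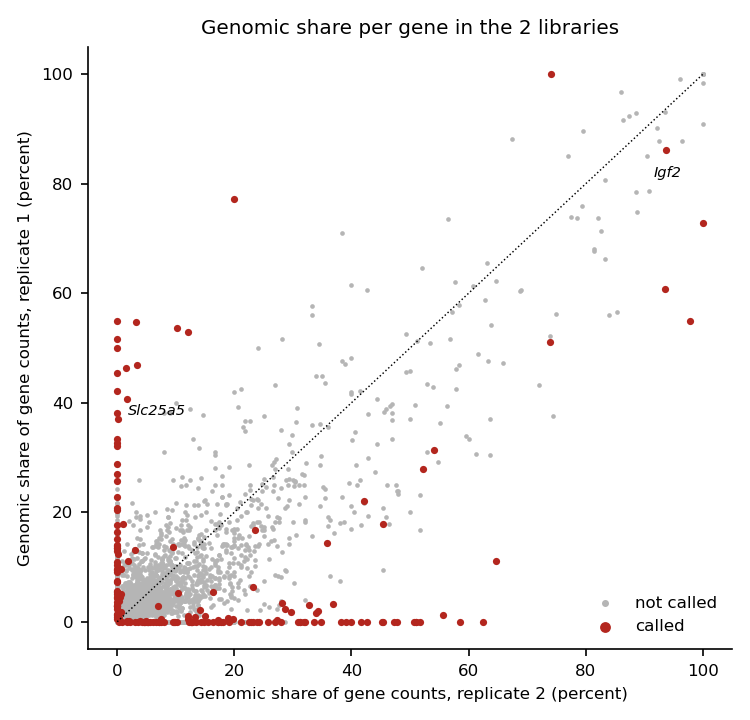
Genomic share of the counts of each gene in replicate 1 (y axis, percent) against replicate 2 (x axis, percent), for the 4091 genes tested. Red points are the 174 genes called at an adjusted p under 0.05, grey points the others, and the dotted line marks equal shares; many red points lie on or next to an axis, as Slc25a5 does.

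In many called genes the counts missing from the Genomic class in one library stood in 1-exon models of the ISM class instead. Slc25a5, a second ADP/ATP carrier, had 257 Genomic and 0 one-exon ISM counts of 693 in replicate 1, and 1 Genomic and 447 one-exon ISM counts of 1003 in replicate 2. Its Genomic share differed with an adjusted p of 1.22e-109 (Fisher's exact test), whereas the joined share of both kinds, 37.1% and 44.7%, gave an adjusted p of 0.185. The 8 epidermal markers of the list used here summed to 4 counts in replicate 1 and 1122 in replicate 2. The part of these cells in the result was not tested, and in bulk tissue more cells of a type and more RNA per cell cannot be told apart.

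Several of the largest differences had the same form. Gadd45gip1, a mitochondrial ribosome protein, had 0 Genomic and 55 one-exon ISM counts of 94 in replicate 1, and 100 and 0 of 171 in replicate 2. Its joined share was 58.5% in each library. Dnmt3a, a DNA methyltransferase, had 1 and 45 of 76 in replicate 1, and 25 and 0 of 45 in replicate 2. In the other direction, Sh3pxd2b, a podosome scaffold protein, had 15 Genomic and 0 one-exon ISM counts of 29 in replicate 1, and 0 and 18 of 25 in replicate 2. Casz1, a zinc finger transcription factor, had 11 and 0 of 20 in replicate 1, and 0 and 7 of 21 in replicate 2. In each of these genes the kind of 1-exon model was nearly exclusive to a library. Ky, with the largest difference towards replicate 1, had 17 and 0 of 22 there, but 4 and 7 of 20 in replicate 2. Zmiz1 also held both kinds in a library, with 4 and 15 of 36 in replicate 1, and 22 and 0 of 34 in replicate 2. The joined share was 51.7% in replicate 1 and 72.0% in replicate 2 for Sh3pxd2b, and 55.0% and 33.3% for Casz1. Neither difference passed the test, at 20 to 29 counts per library.

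**Figure D5:**
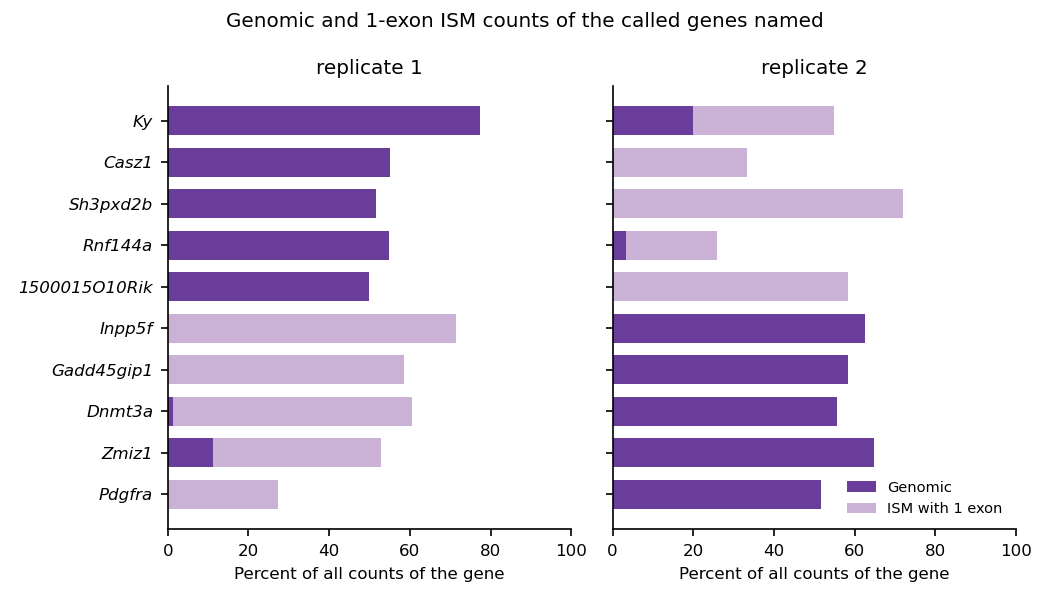
Percent of all counts of the gene in Genomic models (dark) and in 1-exon ISM models (light, stacked), in replicate 1 (left) and replicate 2 (right), for the 5 called genes per direction with the largest difference in Genomic share. Sh3pxd2b is dark on the left and light on the right, and Gadd45gip1 is light on the left and dark on the right, with a joined share of 58.5% in both replicates.

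This pattern was then counted over all genes tested, with counts chosen after the values were seen. Of the 174 called genes, 154 had a 1-exon ISM share that differed in the opposite direction (88.5%), against 21.5% of the 3917 genes tested but not called. The shares of a gene sum to 100%, so a class that falls leaves room for the others, and this comparison is a description. With Genomic and 1-exon ISM counts joined, 22 of the 4091 genes were called (0.538%), 15 of them among the 174. With Genomic and all ISM counts joined, 45 were called (1.1%), 14 of them among the 174. The median absolute difference in the 174 genes, which were chosen for their Genomic difference, was 4.92 percentage points for the joined share and 15.9 for the Genomic share alone. Over all 4091 genes it was 2.40 for the joined share and 2.56 for the Genomic share alone. Of the 250 genes with at least 20 joined counts in each library, 142 had over 90% of them Genomic in both, 42 had over 90% of them ISM in both, and 43 had over 90% in one class in one library and in the other class in the second. Of genes with at least 20 joined counts, 95.3% of 300 in replicate 1 and 94.4% of 372 in replicate 2 had over 90% of them in one of the classes.

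Of the 174 genes, the joined share differed in the same direction as the Genomic share in 124 and in the opposite direction in 50. Among the 15 genes called by both, these counts were 13 and 2. Slc25a4 kept its direction, with no 1-exon ISM count in either library. Nisch, the integrin-binding protein nischarin, kept it as well, with a joined share of 14.4% in replicate 1 and 36.1% in replicate 2 (Fisher's exact test, adjusted p = 1.61e-08). Col1a1, a chain of type I collagen, was called in opposite directions. It had 147 Genomic counts of 12494 in replicate 1 and 0 of 6976 in replicate 2, with no 1-exon ISM count in replicate 1 and 266 in replicate 2, so the joined share was 1.18% in replicate 1 and 3.81% in replicate 2 (Fisher's exact test, adjusted p = 3.23e-29). By the joined share, 78 genes had over 50% in both libraries, all 62 above and 16 more, of which Ndufb3, a complex I subunit, with 107 one-exon ISM counts of 164 in replicate 1 and 139 of 225 in replicate 2, and Nes, the intermediate filament nestin, with 94 of 160 and 116 of 165, had 0 or 1 Genomic count.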

How the data were processed

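Long-read RNA libraries were deposited as 1 transcript table and 1 model annotation per library. The tables hold raw counts of reads per transcript model in TALON format, per the file headers. The labels name mm10; aligner, platform and tool versions were not given in the sources used here. Models were placed on GENCODE M21 (mm10) by their exon bases; bases upstream of the annotated start did not change the place. Any exon listed with its start above its end had its coordinates put in ascending order. The part of this in the places and 3′ ends was not tested. The deposited counts were summed per gene. How reads on near-identical gene copies were assigned is not stated, so genes with such copies (Slc25a5, Acta1, Rpl and Rps genes) are uncertain. Shares carry exact Clopper-Pearson 95% intervals. Genes with at least 20 counts in each library were compared by two-sided Fisher's exact tests (SciPy 1.17.1) with Benjamini-Hochberg adjustment at 0.05, tested on simulated data. Scaling used edgeR 4.0.16 and DESeq2 1.42.0. Named genes are the 20 with most Genomic counts, the 20 with the largest lower share at 50 counts, the 10 leading matched models, 1 per place, 5 called per direction and 3 per list; others, such as Klf9, Airn, Camk2b and Ndufb3, were chosen after their values were seen, and 1 gene that the rule takes is not reported here, while some others are not named. Members and lists were chosen with earlier results of these data known. Of the unprinted cell type marker lists, those for adipocyte, erythroid, endothelium and macrophage had 0 to 7 Genomic counts per library. The Schwann cell list, likewise unprinted, was higher, with 46 Genomic counts (a share of 3.16%) for replicate 1 and 361 (10.1%) for replicate 2. With all classes summed, this list reached 1455 and 3574, respectively.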

Additional observations from a re-analysis of the deposited data

Results flagged for a closer look

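Genomic models also occurred on loci outside the annotation, which were not used above. They held 1225 counts in replicate 1 on 447 models and 1897 counts in replicate 2 on 636 models. They are given because they carry signal outside the genes compared.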

How the results depend on the processing

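The Genomic share of all counts was 3.25% without replicate 1 and 2.92% without replicate 2. Its mean over both, 3.08%, became 2.93% without the 20 leading genes and 3.11% without processed pseudogenes. The 174 calls became 113 with a difference of at least 10 percentage points required as well. They became 22 with 1-exon ISM joined, 45 with all ISM joined and 22 with 1-exon models of every class; these joins were chosen after seeing the data. Other count minimums, or gene counts without ISM, gave 133 to 178 calls. The 62 genes with over 50% became 137 at 10 counts, 22 at 50 counts, 624 with no filter and 29 at over 75%, and 103 and 118 where a single library was used for both the share and the minimum. Intron models held 9.10% of the counts on average, 10.5% where an overlap needed 10 bases and 6.04% among models with at least 2 counts. Last-exon models held 65.4% on average, 60.0% with only the transcripts that had counts and 70.2% among models with at least 2 counts. The other places moved by more than the replicate SD in 13 settings. Matching gave 1411 models, 1231 within 20 bases, 2010 within 500 and, on the 3′ end alone (added after seeing the data), 3234. Joining 1-exon ISM turned the direction in 50 of the 174 called genes, 2 of them still called (Col1a1 and Laptm4a). Ends before at least 10 A in place of 12 held 21.8% of the readable counts on average, against 12.6%. The Genomic CPM of the 67 named genes moved by less than the spread between replicates under TMM and DESeq2 size factors. No paired analysis was possible because the series has a single group. With 2 libraries, spread between animals cannot be estimated well, and ends in introns or past annotated ends could not be read for sequence.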
